A study of Homo sapiens with 12 samples.

Results

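The genes described here are the 35 genes listed under the Gene Ontology term ion gated channel activity for MCF-10A, of 2680 genes listed for this cell line and 3090 distinct genes listed for the 3 cell lines of the study. They were chosen by measured values. The list comes from the authors' comparison of cells after transit with control cells, and every gene on it has an unadjusted p-value under 0.05, whereas the study's methods call genes by the adjusted p-value. The term was then taken from the authors' enrichment of this comparison. Every difference between constriction and control is therefore a description of the same libraries that selected the genes, and none of them was tested.

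RNA from MCF-10A, MDA-MB-231 and LM2 breast cells was sequenced to ask how passage through capillary-sized constrictions alters transcripts. MCF-10A is a non-malignant mammary epithelial line, MDA-MB-231 is a metastatic triple negative breast cancer line and LM2 is a lung-metastatic derivative of MDA-MB-231. The constriction group had been pushed at 7 to 33 cmH2O through channels with a cross-section of 5 by 5 µm and a length of 150 µm and collected after transit, and the control group of the same line had not transited. Each group had 2 libraries, 12 in all, and only the 4 libraries of MCF-10A enter the values below unless another line is named. All MCF-10A cells shared a medium with horse serum, insulin, epidermal growth factor, cholera toxin and hydrocortisone. The line is established in culture, and cells after transit were gathered from parallel chips. By the study's supplement, control cells were taken at concentrations that varied between experiments and were higher than those after transit in MCF-10A. The amount of RNA also differed between the MCF-10A groups, and not in the same direction in each experiment. All this limits how closely the groups match, and its part in the values was not tested.

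Gated ion channels are membrane proteins whose pore opens on a signal, such as a change of voltage, a bound transmitter or nucleotide, stretch or heat, and then lets selected ions pass. Voltage gated potassium, sodium and calcium channels shape the action potential of nerve and muscle, and ligand gated channels carry fast synaptic transmission. In epithelia, channels of the potassium, chloride, epithelial sodium and TRP families serve salt and water transport, volume control and calcium entry.

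Sequencing depth in MCF-10A was 36123663 and 46436989 reads in control cells and 29978695 and 35494737 in cells that had transited, in the order of replicates 1 and 2, which is kept throughout. Normalised counts are reads over a size factor, which was 0.83 and 0.966 after transit and 1.02 and 1.27 in control. FPKM, which scales reads by transcript length and library total, serves here to compare levels between genes. A count of 0 allows up to 3 reads in a library, which is a normalised count of 3.62 and 3.11 in the constriction libraries. Such floors, and the Poisson intervals given below, cover counting error only.

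Of the 35 channel genes, 34 (97.1%) had a lower mean normalised count after transit than in control, and 94.5% of all listed genes did. The same 34 genes had both constriction libraries below both control libraries, again beside 94.5% of all listed genes. These 34 genes also had 0 reads in both constriction libraries, as did 89.6% of all listed genes and 90.9% of the 1189 listed protein coding genes. The exception was *KCNA10*, with a higher mean after transit that came from 1 library. In bulk samples, fewer cells of a type and less RNA per cell cannot be told apart. Because the listing used this contrast, the shares describe the list and nothing is read from them about channels.

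The control reads behind these values were few. Summed over the 35 genes, the control libraries held 899 and 572 reads, and the constriction libraries 289 and 0 reads, all 289 of them from *KCNA10*. The mean normalised count in control had a median of 11.9 over the channel genes, 20.4 over the listed protein coding genes and 16.6 over all listed genes. Per length, the median control FPKM was 0.102 for the channel genes, 0.158 for the protein coding genes and 0.251 for all listed genes. The median transcript length was 4423 bases for the channel genes and 3966 bases for the protein coding genes. Without control replicate 1 the median control level of the channel genes was 10.3, and without control replicate 2 it was 15.7.

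**Figure D1:**
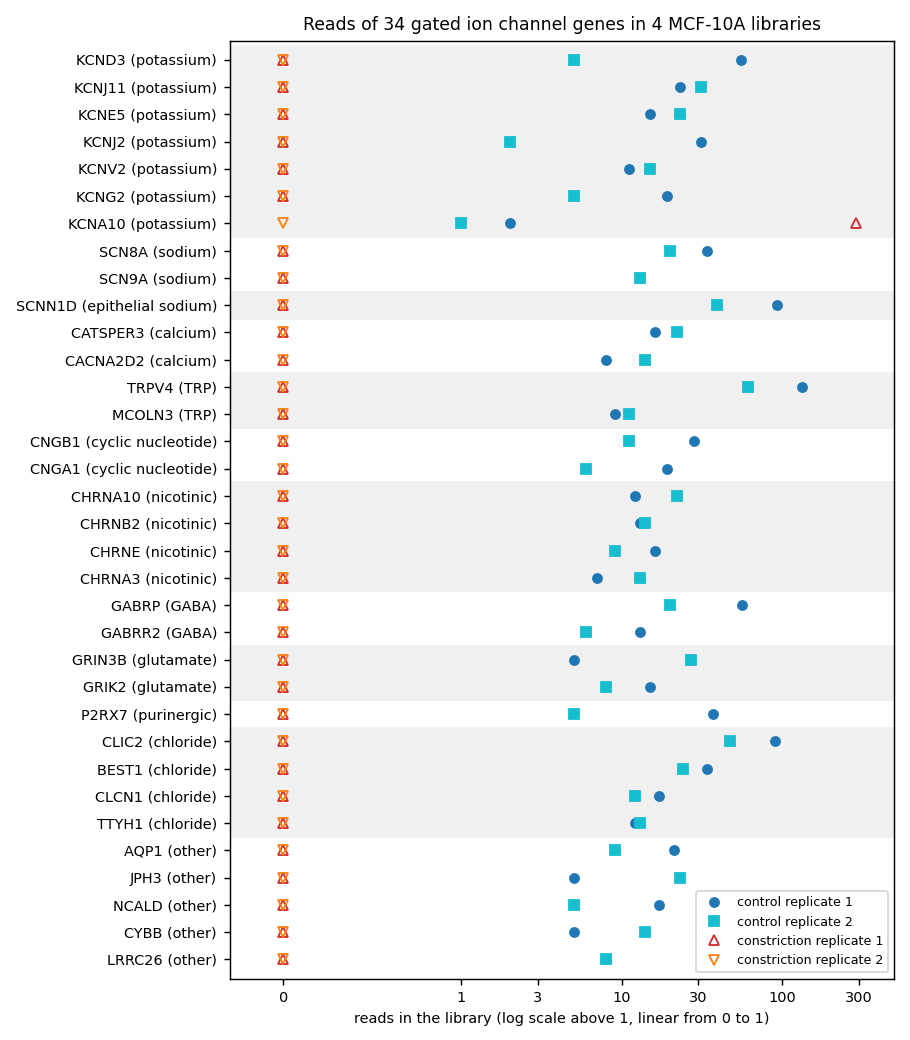
Reads of 34 of the 35 channel genes (rows, by family) in the 2 control libraries (filled) and 2 constriction libraries (open) of MCF-10A, on an axis that is linear from 0 to 1 and logarithmic above. All constriction symbols lie at 0 except that of *KCNA10* in constriction replicate 1, at 289 reads, and control values run from 1 to 133 reads.

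The median difference of log2(mean normalised count + 1), constriction minus control, was -3.69 for the channel genes, -4.31 for the listed protein coding genes and -4.05 for all listed genes. With constriction at 0, such a value depends on the pseudocount of 1, so ratios are given below as bounds against 3 reads in each constriction library. Each bound divides the measured control mean by that floor. It allows for counting error after transit only, not for error in the control counts, and is no confidence limit. Over the 34 channel genes at 0 the bound had a median of at least 3.71-fold lower and ran from at least 2.10-fold to at least 26.5-fold lower. The same median was at least 5.89-fold over the protein coding genes and at least 4.90-fold over all listed genes with 0 reads after transit.

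The potassium family had 7 genes of the term. *KCND3* encodes a voltage gated channel of the transient outward current of heart and brain, and lies on chromosome 1 from 111770662 to 111989155. It had 55 and 5 reads in control and 0 and 0 after transit. Its control mean, 28.9 ± 35.3 normalised counts (SD, n = 2), was the highest of the family, but 1 control library carried it. The bound was at least 8.60-fold lower with both control libraries and at least 1.17-fold lower without control replicate 1.

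*KCNJ11*, on chromosome 11 from 17385859 to 17389331, encodes the pore of the ATP sensitive potassium channel that couples glucose to insulin release. It had 23 and 31 reads in control, a normalised count of 23.5 ± 1.39 (SD, n = 2), and 0 and 0 reads after transit. The control replicates lay close together, and the bound was at least 6.99-fold lower. *KCNJ2*, on chromosome 17 from 70168673 to 70180048, encodes an inward rectifier that holds the resting potential. It had 31 and 2 reads in control, 19.2-fold apart after normalisation, and 0 and 0 after transit. The normalised count in control was 16.0 ± 20.3 (SD, n = 2). The bound of *KCNJ2* was at least 4.75-fold lower, which is lost without control replicate 1 because the remaining control library lay under the floor.

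*KCNE5*, an accessory subunit of voltage gated potassium channels, had 15 and 23 reads in control. *KCNV2* and *KCNG2* encode subunits that form no channel alone and modify others, and they had 11 and 15 reads and 19 and 5 reads in control. These 3 genes had 0 reads in both constriction libraries, with bounds of at least 4.89-fold, 3.36-fold and 3.35-fold lower. Without control replicate 1 the bound of *KCNG2* was at least 1.17-fold.

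*KCNA10* (ENSG00000143105) encodes a Shaker-type voltage gated potassium channel sensitive to cyclic nucleotides, and was the only one of the 35 genes with a read in a constriction library. The gene has 1 exon of 1959 bases on chromosome 1 from 110517217 to 110519175. In control cells 2 and 1 reads were counted, and 289 and 0 in cells that had transited. The normalised counts were 348 and 0 after transit and 1.96 and 0.79 in control, so the groups overlapped and 1 library carried the whole difference. The difference of log2(mean normalised count + 1) was 6.21, and without constriction replicate 1 it was -1.25. The log2 values of single libraries gave a standard error of 4.24 (n = 2 per group). It belongs to the difference between the means of those log2 values and not to 6.21.

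Constriction replicate 1 held other genes of this pattern. With limits chosen after the values were seen, 45 listed genes, 10 of them protein coding, had at least 100 reads in constriction replicate 1, 0 in constriction replicate 2 and at most 3 in each control library. *KCNA10* itself meets these limits. The part of this library in the value of *KCNA10* was not tested. Within 2 Mb of *KCNA10*, 13 genes were listed, itself included. *GPR61*, an orphan receptor gene, had 2 and 4 reads in control cells and 331 and 22 in cells that had transited, and the other 11 had 0 reads in both constriction libraries. *KCND3*, 1251487 bases away, was the nearest other channel gene of the term on the same chromosome, and no other pair among the 35 genes lay closer together.

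Of the voltage gated sodium channel genes, *SCN8A* encodes a pore subunit of the axon initial segment and lies on chromosome 12 from 51590266 to 51812864. It had 34 and 20 reads in control, a normalised count of 24.5 ± 12.4 (SD, n = 2), and 0 and 0 after transit, at least 7.30-fold lower, or at least 4.70-fold without control replicate 1. *SCN9A*, a pore subunit of pain-sensing neurons, had 13 and 13 reads in control and 0 and 0 after transit, at least 3.42-fold lower. Both genes have long transcripts, 14935 and 13741 bases, and per length *SCN9A* had the lowest control level of the 34 genes at 0 after transit, an FPKM of 0.0233.

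*SCNN1D*, on chromosome 1 from 1280436 to 1292029, encodes the delta subunit of the epithelial sodium channel, a family that takes up sodium across epithelia without voltage gating. It had 93 and 39 reads in control, a normalised count of 60.9 ± 42.6 (SD, n = 2), and 0 and 0 after transit. Both control libraries lay far above the floor, and the bound was at least 18.1-fold lower, or at least 9.16-fold without control replicate 1.

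Among calcium channel genes, *CATSPER3*, a pore subunit of the sperm calcium channel, had 16 and 22 reads in control, a normalised count of 16.5 ± 1.21 (SD, n = 2), and 0 and 0 after transit. The gene lies on chromosome 5 from 134967906 to 135011707, and the bound was at least 4.91-fold lower. *CACNA2D2*, an auxiliary subunit that carries voltage gated calcium channels to the membrane, had 8 and 14 reads in control and 0 and 0 after transit, at least 2.81-fold lower.

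*TRPV4* (ENSG00000111199), a calcium permeable channel opened by cell swelling, warmth and mechanical load, had the highest control level of the 35 genes on both scales. It lies on chromosome 12 from 109783085 to 109833401. It had 133 and 61 reads in control and 0 and 0 after transit. Counting error alone gives these control counts exact 95% Poisson intervals of 111 to 158 and 46.7 to 78.4 reads, before any scaling for depth. Its normalised count in control was 89.2 ± 58.0 (SD, n = 2) and its FPKM 0.664 ± 0.445 (SD, n = 2). The bound was at least 26.5-fold lower, and at least 14.3-fold without control replicate 1. *MCOLN3*, a mucolipin channel of endosomes and lysosomes, had 9 and 11 reads in control and 0 and 0 after transit, at least 2.60-fold lower.

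The channels gated by cyclic nucleotides were represented by *CNGB1* and *CNGA1*, subunits of the rod photoreceptor channel. *CNGB1* lies on chromosome 16 from 57882340 to 57971116. It had 28 and 11 reads in control, a normalised count of 18.0 ± 13.2 (SD, n = 2), and 0 and 0 after transit, at least 5.37-fold lower. *CNGA1* had 19 and 6 reads in control and 0 and 0 after transit, at least 3.47-fold lower. Control replicate 1 was the higher control library for both, and without it the bounds were at least 2.58-fold for *CNGB1* and at least 1.41-fold for *CNGA1*.

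**Figure D2:**
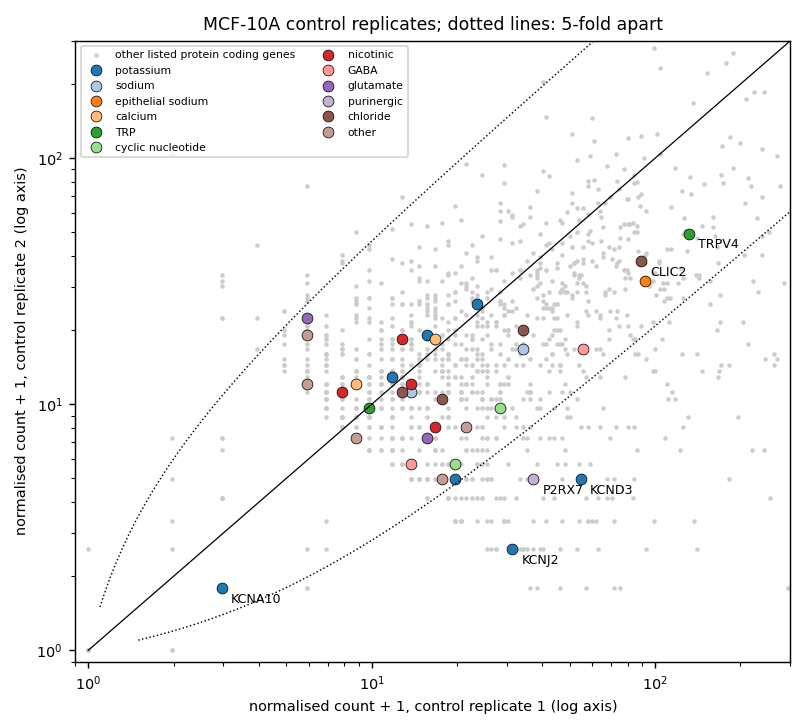
Normalised count + 1 in control replicate 1 (x, log axis) against control replicate 2 (y, log axis) for 34 of the 35 channel genes, coloured by family, and for the other listed protein coding genes in grey; values above the end of the axes are not drawn. *KCND3*, *P2RX7* and *KCNJ2* lie beyond the dotted line of a 5-fold difference, and *KCNA10* lies near the origin.

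Nicotinic acetylcholine receptor subunits, which form cation channels opened by acetylcholine, numbered 4. *CHRNA10*, a subunit of the receptor of cochlear hair cells, had 12 and 22 reads in control, a normalised count of 14.6 ± 3.98 (SD, n = 2), and 0 and 0 after transit. It lies on chromosome 11 from 3665587 to 3671384 and was at least 4.33-fold lower. *CHRNB2*, a subunit of the main receptor of the brain, had 13 and 14 reads in control. *CHRNE*, the adult subunit of the muscle receptor, had 16 and 9, and *CHRNA3*, a subunit of the ganglionic receptor, had 7 and 13. These 3 genes had 0 reads after transit, with bounds of at least 2.55-fold to at least 3.54-fold lower. Without control replicate 1 the bound of *CHRNE* fell from at least 3.39-fold to at least 2.11-fold.

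Of the GABA receptor genes, whose channels pass chloride, *GABRP* encodes the pi subunit, which is known from reproductive tissue and breast epithelium. It lies on chromosome 5 from 170763350 to 170814047. It had 56 and 20 reads in control, a normalised count of 35.3 ± 27.6 (SD, n = 2), and 0 and 0 after transit. The bound was at least 10.5-fold lower, and at least 4.70-fold without control replicate 1. *GABRR2*, a rho subunit of the retina, had 13 and 6 reads in control and 0 and 0 after transit, at least 2.60-fold lower, or at least 1.41-fold without control replicate 1.

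Of the glutamate receptor genes, *GRIN3B* encodes an NMDA receptor subunit and had 5 and 27 reads in control, a normalised count of 13.1 ± 11.6 (SD, n = 2), and 0 and 0 after transit. It lies on chromosome 19 from 1000419 to 1009732. Here control replicate 2 was the higher one, and the bound of at least 3.90-fold lower became at least 1.46-fold without it. *GRIK2*, a kainate receptor subunit, had 15 and 8 reads in control and 0 and 0 after transit, at least 3.12-fold lower, or at least 1.88-fold without control replicate 1. *P2RX7*, on chromosome 12 from 121132819 to 121188032, encodes a cation channel opened by extracellular ATP. It had 37 and 5 reads in control, 9.18-fold apart after normalisation, and 0 and 0 after transit. The normalised count in control was 20.1 ± 22.8 (SD, n = 2). The bound of *P2RX7* was at least 5.98-fold lower, and at least 1.17-fold without control replicate 1.

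Among chloride and anion channel genes, *CLIC2* (ENSG00000155962), a soluble protein that can insert into membranes and that regulates ryanodine receptors, had 90 and 47 reads in control and 0 and 0 after transit. The gene lies on chromosome X from 155276211 to 155334657. Its normalised count in control was 62.6 ± 36.1 (SD, n = 2), and the bound was at least 18.6-fold lower, or at least 11.0-fold without control replicate 1. *BEST1*, a calcium activated anion channel of the retinal pigment epithelium, had 34 and 24 reads in control and was at least 7.77-fold lower. *CLCN1*, the chloride channel of skeletal muscle, had 17 and 12 reads, and *TTYH1*, of the tweety family, had 12 and 13. The bounds of these 2 genes were at least 3.89-fold and at least 3.27-fold lower, with 0 reads after transit in each library.

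The term also held 5 genes of other families. *AQP1*, a water channel, had 21 and 9 reads in control, a normalised count of 13.8 ± 9.51 (SD, n = 2), and 0 and 0 after transit. It lies on chromosome 7 from 30911694 to 30925516 and was at least 4.12-fold lower, or at least 2.11-fold without control replicate 1. *JPH3*, a junctophilin that ties plasma membrane to endoplasmic reticulum in neurons, had 5 and 23 reads in control, and *NCALD*, a neuronal calcium sensor, had 17 and 5. *CYBB*, the catalytic subunit of the phagocyte NADPH oxidase, had 5 and 14 reads, and *LRRC26*, an auxiliary subunit of calcium activated potassium channels of secretory epithelium, had 8 and 8. These 4 genes had 0 reads after transit. The bound was at least 1.17-fold lower for *NCALD* without control replicate 1, and at least 1.46-fold for *JPH3* and for *CYBB* without control replicate 2, in place of at least 3.06-fold, 3.43-fold and 2.37-fold. *LRRC26* had the lowest control mean of the 34 genes, 7.07 ± 1.07 normalised counts (SD, n = 2), and a bound of at least 2.10-fold. The lowest control mean of any listed gene with 0 reads in both constriction libraries was 6.88, and genes outside the list were not analysed here.

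**Figure D3:**
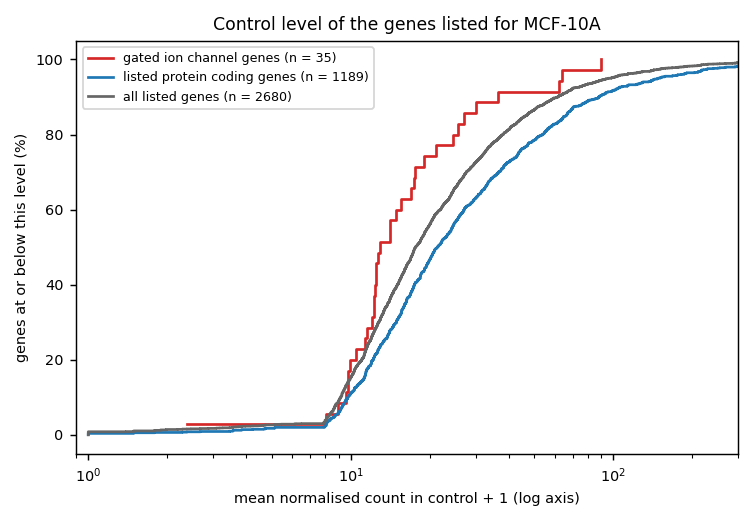
Share of genes (y, percent) at or below a given mean normalised count + 1 in control (x, log axis, values above its end not drawn) for the 35 channel genes, the 1189 listed protein coding genes and all 2680 listed genes. The curve of the channel genes reaches its middle at 11.9 normalised counts, against 20.4 and 16.6.

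Compared per length, the order of the control levels changed below the first 3 genes. *TRPV4* had a mean FPKM of 0.664, *CLIC2* of 0.617 and *SCNN1D* of 0.424. They were followed by the short transcripts of *KCNE5* with 0.309 and *CATSPER3* with 0.29. With 2 control libraries the SD was 0.445 for *TRPV4*, 0.368 for *CLIC2* and 0.305 for *SCNN1D*. All 3 genes were higher in control replicate 1, so these SDs hold a gap that the genes share and do not decide their order. Within libraries the FPKM was 0.979 and 0.349 for *TRPV4*, 0.877 and 0.356 for *CLIC2* and 0.640 and 0.209 for *SCNN1D*. The first 2 genes thus changed places between libraries, and *SCNN1D* was the lowest of the 3 in both.

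The control replicates differed among themselves. Normalised counts were higher in control replicate 1 for 24 of the 35 genes (68.6%), for 66.6% of the listed protein coding genes and for 55.6% of all listed genes. The 2 control libraries were more than 5-fold apart for 3 channel genes, *KCNJ2*, *KCND3* and *P2RX7*, which is 8.57%, beside 12.6% of all listed genes and 18.3% of the listed protein coding genes. In all 3 of them control replicate 1 was the higher library. The median bound of the 34 genes at 0 was at least 3.17-fold lower without control replicate 1 and at least 4.66-fold lower without control replicate 2. For 19 of these genes, leaving out 1 control library lowered the bound by more than 1.5 times or removed it. That is 55.9%, beside 45.7% of all listed genes at 0 after transit and 51.9% of the protein coding ones.

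**Figure D4:**
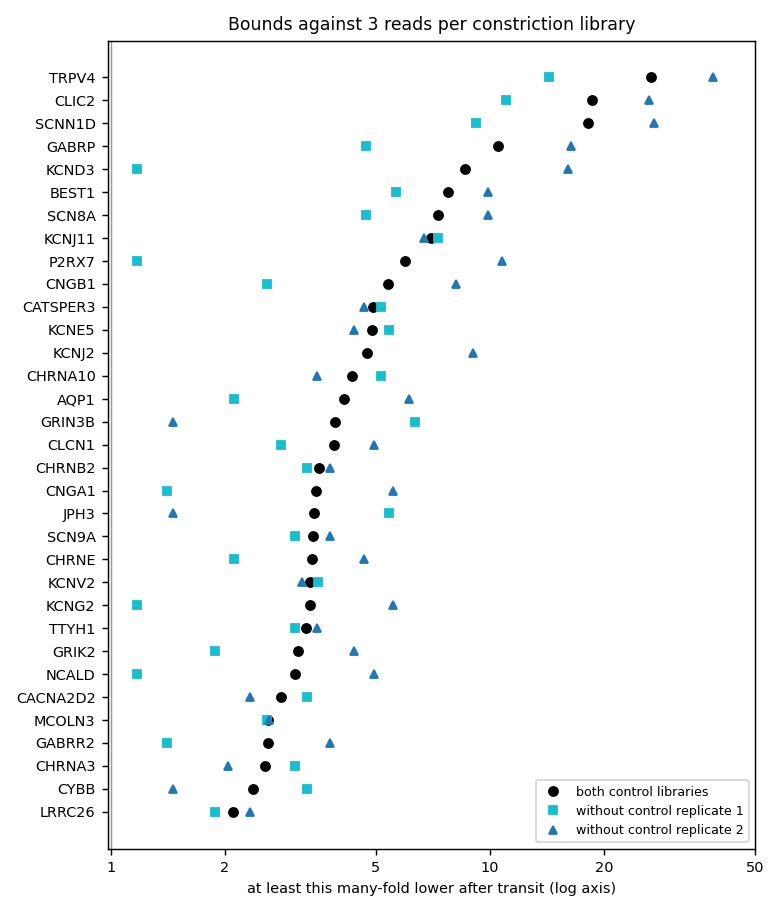
Bound on the decrease after transit (x, log axis, at least this many-fold lower) for the named channel genes with 0 reads in both constriction libraries, with both control libraries (black) and with 1 of them left out (squares and triangles). Error in the control counts is not included. The bounds with both libraries run from 2.10 for *LRRC26* to 26.5 for *TRPV4*, and *KCNJ2* has no square because its control replicate 2 lies under the floor.

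Many of these channels are best known from other tissues. By the terms deposited with the list, 12 of the 35 genes also belonged to chemical synaptic transmission, 9 to muscle contraction, 9 to sensory perception and 10 to blood circulation. In the same order, these terms held 64, 38, 49 and 45 listed genes. The 12 synaptic genes were 18.8% of the listed genes of their term and the 9 muscle genes 23.7%. Such counts describe how the genes are annotated, and nothing about the cells is read from them. All 19 listed genes of ligand-gated ion channel activity were among the 35. The 35 are also all listed genes of gated channel activity, which includes ligand-gated channels, so the terms fix this share. Marker genes of other cell types were read in the same libraries. Of 12 neuron markers, *TUBB3* with 8 and 20 control reads and *RBFOX3* with 11 and 6 were listed, with a summed normalised count of 18.6 and 20.5 in control and 0 and 0 after transit. Of 11 muscle markers, *TNNT2* was listed with 62 and 29 control reads, and of 10 leukocyte markers, *ITGAM* with 124 and 7.

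Of 4 endothelial markers, *PECAM1* was listed with 71 and 48 control reads, and of 7 fibroblast markers, *PDGFRB* with 22 and 22. All of these had 0 reads in both constriction libraries, as did 89.6% of all listed genes and 90.9% of the listed protein coding genes. Nothing about cell types is therefore read from these zeros, and the part of such cells in the channel values was not tested. Of 18 markers of basal and luminal mammary epithelium, the luminal keratin gene *KRT19* was listed, with 5 and 21 control reads and 0 after transit. The other markers have no value here because genes outside the list were not analysed, so the identity of the cells was not checked further.

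Seen from the gene families, GENCODE release 29 holds 378 protein coding genes with a channel family name. Of these, 37 were listed for MCF-10A, 36 with a lower and 1 with a higher mean after transit, and 341 were not listed. The 37 genes are 9.79% of the 378, and 5.96% of all 19951 protein coding genes of this annotation were listed. The difference between these shares was not tested. By family, 7 of 97 genes named KCN, 3 of 14 named SCN, 1 of 4 named SCNN and 1 of 26 named CACN were listed. So were 2 of 9 named CATSPER, 3 of 31 of the TRP group and 2 of 10 of the CNG and HCN group. Receptor families had 4 of 16 CHRN, 2 of 19 GABR, 2 of 19 glutamate and 1 of 8 P2RX genes listed. Of the chloride group 5 of 41 were listed, and of other channels 4 of 84. The term did not hold 6 of the 37 genes, and each of these had 0 reads in both constriction libraries. *BEST2*, an anion channel gene, had 174 and 17 reads in control, and *PANX2*, a pannexin gene, had 80 and 85. *CATSPERB*, an accessory subunit of the sperm channel, had 50 and 13, *OTOP1*, a proton channel gene, 18 and 9, and *TRPV6*, a calcium channel gene of absorbing epithelia, 16 and 7.

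In the other cell lines, 0 of the 35 genes were among the 381 genes listed for MDA-MB-231 or the 97 listed for LM2. Such sharing was rare for any gene, with 56 of the 2680 genes listed for MCF-10A (2.09%) and 16 of its 1189 protein coding genes (1.35%) also listed for another line, so nothing about channels is read from the count. Their values in these lines were not analysed here, so no difference between cell lines was tested.

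The 35 genes lay on 17 chromosomes, and the start, end and merged exon length of all 35 matched GENCODE release 29 on GRCh38. Exons of 15 genes overlapped a gene on the opposite strand and those of 5 a gene on the same strand, while 16 genes had no overlap. Whether the libraries kept the strand is not given in the sources used here, so reads of overlapping genes are uncertain. The longest overlaps were those of *BEST1* with *FTH1*, 1267 bases, *CHRNE* with *C17orf107*, 1172 bases, and *SCN9A* with an antisense gene, 1122 bases. Overlaps on the same strand included *AQP1* with *AC004691.2*, 910 bases, and *CATSPER3* with *PCBD2*, 581 bases. Reads there are uncertain even if the libraries kept the strand. *TRPV4* overlapped a microRNA gene by 52 bases, and *CLIC2*, *SCNN1D*, *KCNJ11*, *KCND3*, *P2RX7* and *KCNA10* overlapped none.

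Start site windows of 300 bases from RefSeq, build GRCh38.p14, were found for 28 of the 35 genes, 32 windows in all. Missing entries included those of *TRPV4*, *SCNN1D*, *KCNJ11*, *BEST1*, *JPH3* and *NCALD*. The median GC content was 64.2% in the windows of the channel genes, 60.0% in those of the other listed protein coding genes and 58.7% in all 35116 windows. The letters GGGCGG (GC box) stood on either strand in 16 of the 32 channel windows and 45.0% of all windows, CCAAT in 40.6% and 34.6%, TATAAA in 12.5% and 11.5%, GGACAG (part of the element bound by the neuronal repressor REST) in 25.0% and 20.5%, and TGAGTCA (AP-1) in 3.12% and 4.95%. In the windows of the other listed protein coding genes the shares were 47.9%, 31.0%, 11.8%, 23.7% and 5.13%, in the same order of motifs. None of these motifs contains another.

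The bases before the annotated start are shown for the gene with the highest control count among those with a window, *CLIC2*, for the gene read after transit, *KCNA10*, and for *P2RX7*, the gene with control replicates more than 5-fold apart whose single window reaches before the start of both annotations. Capitals mark the motifs above on either strand. The strand is minus for *CLIC2* (chrX:155334658-155334864) and *KCNA10* (chr1:110519176-110519425) and plus for *P2RX7* (chr12:121132626-121132818), and each is written from 5′ to 3′ of the gene. The first has a TATA box and an AP-1 motif, the second 2 CCAAT boxes and the third 1 GC box, which describes letters and not bound sites.
CLIC2: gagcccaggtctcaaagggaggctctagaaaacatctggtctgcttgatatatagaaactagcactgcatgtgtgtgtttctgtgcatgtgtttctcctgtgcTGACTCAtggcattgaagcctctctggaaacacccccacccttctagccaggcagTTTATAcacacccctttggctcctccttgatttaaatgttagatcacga
KCNA10: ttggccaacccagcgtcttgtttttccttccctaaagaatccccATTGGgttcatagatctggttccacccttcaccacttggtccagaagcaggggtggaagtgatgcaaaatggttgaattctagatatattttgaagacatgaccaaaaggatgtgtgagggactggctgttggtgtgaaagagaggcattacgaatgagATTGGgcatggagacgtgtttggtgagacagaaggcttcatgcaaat
P2RX7: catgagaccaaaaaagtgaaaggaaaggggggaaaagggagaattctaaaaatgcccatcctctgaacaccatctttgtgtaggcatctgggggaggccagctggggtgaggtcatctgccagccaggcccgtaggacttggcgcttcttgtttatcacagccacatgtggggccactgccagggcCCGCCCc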

How the data were processed

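RNA sequencing of 12 libraries was analysed from tables that the authors deposited, and the 4 MCF-10A libraries carry the values. Per the submitters' notes, the authors filtered reads with fastp, aligned them with HISAT2 2.0.5 to GRCh38 and counted them with featureCounts 1.5.0-p3. The deposited counts are whole reads per gene. The deposited normalised counts (signal) are these counts over DESeq2 1.20.0 size factors, set by the authors for each cell line separately. The authors computed FPKM from counts and gene lengths. The deposited log2 fold changes, adjusted p-values and enrichment ratios are the authors' own comparison and were not used. The deposited p-values were read only to see that all listed genes lie under 0.05. Groups follow the labels, and the LM2 library with conflicting replicate numbers was taken by its title.

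The members and lists were chosen with earlier results of these data known, and no test was made. Library totals were computed from counts, FPKM and lengths. Full values were given for members read after transit, members with a higher mean after transit, the highest control member of each family and members with control libraries more than 5-fold apart; KCNJ11 and LRRC26 were added after their values were seen; other members were named with their control reads, except 1 member that counts and medians include but that is not reported here, and 5 channel genes outside the term by control level. Reads shared with paralogs or pseudogenes were not checked. Marker lists, motifs and the choice of printed windows were made after the data were seen. Functions were tested on simulated data. Python 3 with pandas and SciPy was used, and edgeR 4.0.16 gave the TMM factors.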

Additional observations from a re-analysis of the deposited data

How the results depend on the processing

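The results come from no test. By the study's supplement, a replicate number stands for an experiment that gave both a control and a constriction sample, so differences within a replicate number were also described, a choice made after seeing the data. The median log2 difference was -4.06 within replicate 1 and -3.49 within replicate 2, and -3.62 for the mean of both, beside -4.06 and -3.85 over all listed genes within each number. Within both numbers 34 of the 35 genes were lower, and 94.5% of all listed genes were. No paired test was made. Leaving out 1 library at a time gave 34 to 35 channel genes lower after transit, 34 to 35 with both constriction libraries below both control libraries and 34 to 35 with 0 reads. The median log2 difference ran from -4.06 to -3.49 and the median control level from 10.3 to 15.7 over the left-out libraries. The reversed value was that of KCNA10 without constriction replicate 1, -1.25 in place of 6.21, since its reads come from that library, and 7.20 without constriction replicate 2. A minimum mean normalised count of 10 over the 4 libraries left 10 genes, of which 9 were lower, 9 lay below both control libraries and 9 had 0 reads after transit, with a median log2 difference of -4.83. With constriction at 0, a gene passes this minimum only through its control libraries, so these values are fixed by the selection and show nothing about stability. The median log2 difference was -4.16 with TMM factors of the listed genes, -0.14 on log2(FPKM + 1), -4.63 with a pseudocount of 0.5 and -1.13 with a pseudocount of 10, since values at 0 rest on the pseudocount and the scale. These factors ran from 0.245 to 7.66, and the median control level with them was 16.8. They were computed on the 2680 listed genes alone, 89.6% of which are at 0 after transit, and are no normalisation over all genes. More than 2-fold apart were the control libraries of 20 genes (57.1%, beside 44.5% of all listed and 50.6% of the listed protein coding genes), more than 10-fold those of 2 (5.71%, beside 5.78% and 9.50%). With the 6 channel genes outside the term, chosen after seeing the data, 40 of 41 genes were lower and 40 had 0 reads. For single members, 55 of 70 differences with another pseudocount moved by more than the spread between replicates and 0 changed sign. Leaving out a constriction library cannot move a member at 0, so those values say nothing about stability. Depth limits every value here: a control count of 8, as in LRRC26, has an exact 95% Poisson interval of 3.45 to 15.8 reads.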

Other observations

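In MDA-MB-231, whose list holds none of the 35 genes, 1 protein coding channel gene was listed. It was *TRPC7*, which encodes a calcium permeable channel and lies on chromosome 5 from 136213320 to 136365545. In control cells 2 and 0 reads were counted, and 24 and 8 in cells that had transited. Its mean was higher after transit, but both control counts lay within the floor of 3 reads and constriction replicate 2 held only 8 reads. The antisense RNA *KCNQ1OT1*, which carries a channel name but encodes no channel, had 144 and 184 reads in control cells and 425 and 342 in cells that had transited. For LM2, 0 channel genes were listed. Of the 378 channel genes by name this is 0.265% for MDA-MB-231 and 0% for LM2, beside 0.722% and 0.155% of all protein coding genes. Both genes were listed by the same contrast, so these values are a description.

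The 41 SLC and ABC transporter genes listed for MCF-10A, which carry solutes without a gated pore, were counted in the same way. A lower mean after transit was found for 40 of them, and 38 were at 0 reads in each constriction library. These shares, 97.6% and 92.7%, lay near the 94.5% and 89.6% of all listed genes. Their control level had a median of 23.7 normalised counts, and their bound a median of at least 6.99-fold lower, or of at least 3.52-fold without control replicate 1.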
